A study of Mus musculus with 12 samples.

Results

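The 39 genes described here, of fatty acid uptake, activation, mitochondrial oxidation and ketone body use, were followed in the hearts of mice that lost CYB5R3 in adult cardiomyocytes. The members were taken by name, from a list made with earlier results of these data known. Among the 53700 genes of the count table, 39 of 39 symbols were found. All 39 passed the filter on low counts that left 17847 genes for testing. Peroxisomal Acaa1a and Ehhadh, and the 3 ketone body genes Acat1, Bdh1 and Oxct1, were on the list beside the mitochondrial enzymes.

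Whole hearts of 6 ac-WT mice and 6 ac-CYB5R3–KO mice were compared by RNA-Seq of total RNA. By the paper's account the mice were males. Both groups carried Myh6-CreERT2, a Cre recombinase that is made in cardiomyocytes and acts once tamoxifen is given, and both received tamoxifen at 33 mg/kg/d for 5 days, starting at 10 to 13 weeks of age. Their Cyb5r3 alleles were CYB5R3wt/wt in ac-WT mice and CYB5R3fl/fl in ac-CYB5R3–KO mice, and hearts were collected 5 days after tamoxifen. This promoter is not active in the other cells of the heart, and in whole-heart RNA fewer cells of a type and less RNA per cell cannot be told apart. Nothing in the labels names a batch or a pairing of mice.

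Cyb5r3 itself checked the labels. It was 81.9, 121.4 and 185.5 CPM (lowest, median and highest mouse) in ac-WT mice and 42.1, 52.7 and 67.4 CPM in ac-CYB5R3–KO mice, where CPM is the read count scaled to sequencing depth, with library sizes adjusted by TMM, the edgeR normalization. The groups did not overlap, and the mean of ac-CYB5R3–KO mice was 42.8% of the ac-WT mean (log2 fold change -1.22 ± 0.19 SE, edgeR adjusted p = 0.045). Between 43393183 and 53754284 reads were counted per library. Cardiomyocyte markers were abundant in every library, with summed levels from 28100 to 63600 CPM in ac-WT mice and 21500 to 35800 CPM in ac-CYB5R3–KO mice. Of the 14 genes of this list, 11 had a log2 fold change below 0, 3 were lower at an unadjusted p under 0.01 (Tnni3, Myl2 and Myl3), and the difference of the list's mean did not pass (-0.38 on the log2 scale, exact permutation p = 0.0996, adjusted over 9 lists p = 0.179). Ac-WT mice 2 and 3 stood apart with TMM factors of 0.570 and 0.723, against 0.988 to 1.22 in the other 10 libraries. Their mean cardiomyocyte marker levels were the highest (11.53 and 11.29 on the log2(CPM + 1) scale, against 10.17 to 10.89), and their mean fibroblast marker levels the lowest (6.73 and 6.66, against 7.55 to 8.44).

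Cardiac muscle draws most of its ATP from long-chain fatty acids. They are released from lipoproteins by lipoprotein lipase, enter the cell, are bound and joined to coenzyme A, and cross the inner mitochondrial membrane as acylcarnitines. Each turn of the beta-oxidation spiral then removes an acetyl-CoA by a dehydrogenation, a hydration, a further dehydrogenation and a thiolysis, and the electrons of the first step reach ubiquinone through the electron transfer flavoprotein and its dehydrogenase.

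The promoters of both 2-subunit enzymes of this pathway are shown here because the balance of their subunit transcripts differed between the groups. Hadha and Hadhb encode the alpha and beta subunits of the mitochondrial trifunctional protein, and the RefSeq starts of these genes face away from each other with 272 bases between them. The 250 bases before the Hadha start (chr5:30154981-30155230, minus strand, GRCm38.p6) share 228 bases with the 250 bases before the Hadhb start (chr5:30155003-30155252, plus strand). In the Hadha sequence, capitals mark the shared bases. Etfa and Etfb encode the alpha and beta subunits of the electron transfer flavoprotein and lie on different chromosomes (chr9:55512244-55512493, minus strand, and chr7:43443822-43444071, plus strand, same build). In these sequences capitals mark CG dinucleotides, of which the Etfa window held 16 and the Etfb window 14.
Hadha: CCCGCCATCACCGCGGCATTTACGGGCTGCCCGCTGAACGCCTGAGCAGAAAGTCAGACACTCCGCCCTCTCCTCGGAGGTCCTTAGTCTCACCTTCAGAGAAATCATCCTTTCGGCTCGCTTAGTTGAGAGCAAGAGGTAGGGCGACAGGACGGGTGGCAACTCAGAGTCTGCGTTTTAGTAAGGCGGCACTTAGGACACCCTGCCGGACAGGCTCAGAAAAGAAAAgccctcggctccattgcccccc
Etfa: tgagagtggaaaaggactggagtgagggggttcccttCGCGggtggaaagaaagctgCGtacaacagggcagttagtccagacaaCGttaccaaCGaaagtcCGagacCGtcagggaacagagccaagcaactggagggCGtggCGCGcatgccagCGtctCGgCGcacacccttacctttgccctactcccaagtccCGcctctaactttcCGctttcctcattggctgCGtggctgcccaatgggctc
Etfb: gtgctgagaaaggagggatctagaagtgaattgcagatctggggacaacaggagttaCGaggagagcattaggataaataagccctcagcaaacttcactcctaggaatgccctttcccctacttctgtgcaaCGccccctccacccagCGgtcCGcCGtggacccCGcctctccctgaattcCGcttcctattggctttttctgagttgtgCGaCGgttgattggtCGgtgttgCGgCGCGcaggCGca

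Most members had lower levels in ac-CYB5R3–KO mice, few of them past a threshold. Of 39 members, 34 had a log2 fold change below 0, with a median of -0.35, beside -0.01 over all genes tested. At an unadjusted p under 0.01 in edgeR's quasi-likelihood test (two-sided), 6 members (15.4%) were lower, beside 3.27% of all genes tested, and 0 were higher, beside 1.33%. These were Slc27a1, Crat, Acaa2, Eci1, Decr1 and Etfb. At an unadjusted p under 0.05, 20 were lower and 0 higher, beside 9.73% and 4.91% of all genes. After Benjamini-Hochberg adjustment over all 17847 genes, 1 member passed 0.05, the thiolase Acaa2, beside 0.101% of all genes. In 3 members (7.69%), Crat, Acaa2 and Etfb, all 6 ac-CYB5R3–KO mice lay below all 6 ac-WT mice, beside 1.04% of all genes, and in 0 members all lay above, beside 0.510%. With total counts in place of TMM the median of the members was -0.06 with 23 of 39 below 0, while the median of all genes moved to 0.26. Relative to the median of all genes, the member median was -0.35 with TMM and -0.32 with total counts.

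**Figure D1:**
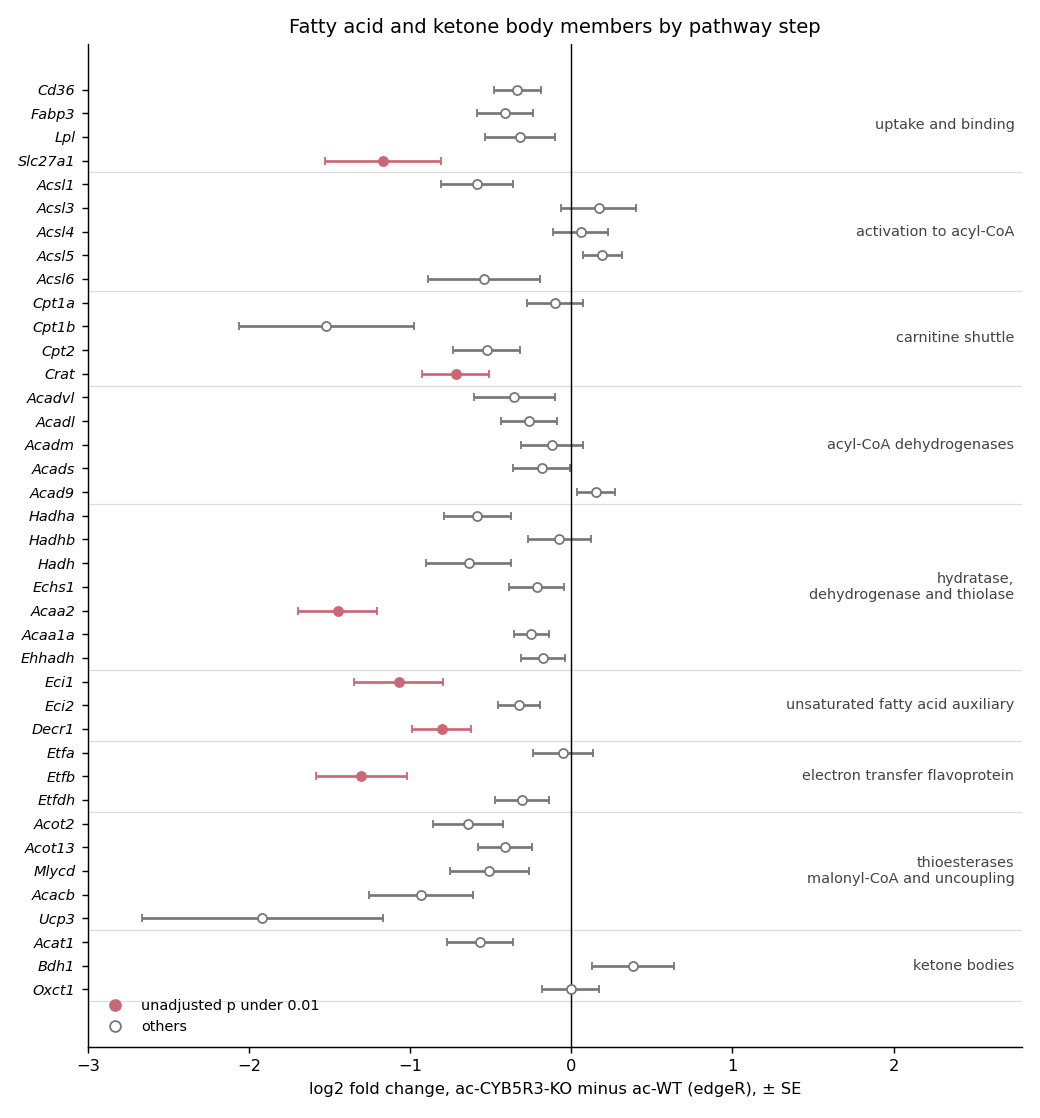
Log2 fold change (ac-CYB5R3–KO minus ac-WT, x axis, bars ± SE from edgeR, n = 6 mice per group) of the 39 members, grouped by pathway step on the y axis. Filled points are the 6 members with an unadjusted p under 0.01, and 34 points lie left of 0.

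The spread between mice was unequal as well. The SD of 32 of 39 members was larger in ac-WT than in ac-CYB5R3–KO mice, and the median CV over members was 29.9% and 21.2%. Ac-WT mouse 2 was the highest of all 12 mice for 22 members and ac-WT mouse 3 for 6. The lowest mouse was ac-CYB5R3–KO 3 for 17 members and ac-CYB5R3–KO 1 for 11. When ac-WT mice 2 and 3 were left out, the member median was -0.17, and 5 of the 6 members stayed under the unadjusted threshold of 0.01. Slc27a1 did not (log2 fold change -0.37, edgeR adjusted p = 0.582). The fold changes of 27 of 39 members kept their direction but shrank by more than 1.5 times without these 2 mice, and 7 turned. Among members without a call, Acacb went from -0.93 to -0.27, Hadh from -0.64 to -0.20, Acsl1 from -0.59 to -0.26, Hadha from -0.58 to -0.27 and Mlycd from -0.51 to -0.10. Other such members were Cpt1b (-1.52 to -0.64), Ucp3 (-1.92 to -0.82), Acot2 (-0.64 to -0.29), Acat1 (-0.57 to -0.23), Cpt2 (-0.53 to -0.24) and Fabp3 (-0.41 to -0.20). In raw counts, the 39 members together took 0.577% to 0.806% of counted reads in ac-WT libraries and 0.530% to 0.859% in ac-CYB5R3–KO libraries, so their summed share overlapped. Lpl alone held 32.3% of the member counts.

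All 4 uptake genes had a log2 fold change below 0 (3 of 4 with total counts, where Lpl turned to 0.03), and 1 was lower at a p under 0.01. Slc27a1 (chr8:74092826-74110607 in NCBIM37), the fatty acid transport protein FATP1, was 33.7, 67.9, 129.6, 38.8, 28.3 and 23.9 CPM in ac-WT mice 1 to 6. In ac-CYB5R3–KO mice 1 to 6 it was 19.3, 24.1, 30.7, 22.2, 26.6 and 20.5 CPM. Ac-WT mice 2 and 3 were far above the rest, and the groups overlapped, with 3 ac-CYB5R3–KO mice below the lowest ac-WT mouse. The log2 fold change was -1.17 ± 0.36 (SE; edgeR adjusted p = 0.196). It missed the unadjusted threshold of 0.01 when ac-WT mouse 3 (-0.68) or 2 (-1.07), or ac-CYB5R3–KO mouse 1 (-1.11), 2 (-1.17), 4 (-1.14) or 6 (-1.13), was left out. Slc27a1 also missed it with total counts (-0.72), with limma-voom (-0.93) and with 1 surrogate variable (-0.24). Of the other uptake genes, Cd36, a fatty acid translocase of the plasma membrane, averaged 490.6 ± 92.3 CPM (SD, n = 6) in ac-WT mice against 389.1 ± 53.1 CPM (SD, n = 6) with the deletion. Fabp3, the fatty acid binding protein of heart muscle, averaged 1087 ± 274 and 817 ± 127 CPM. Neither reached the unadjusted threshold of 0.01 (edgeR adjusted p = 0.321 and 0.292). Lpl ranged from 1876 to 4178 CPM in ac-WT and 1443 to 2493 CPM in ac-CYB5R3–KO mice, with ac-WT mouse 2 alone above 2493.

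The long-chain acyl-CoA synthetases, which activate fatty acids, gave no call in any isoform. Acsl1, the main form of heart muscle, ranged from 88.0 to 189.3 CPM (median 119.1) in ac-WT and 59.3 to 124.0 CPM (median 81.2) in ac-CYB5R3–KO mice, and 3 ac-CYB5R3–KO mice lay below every ac-WT mouse. Its log2 fold change was -0.59 ± 0.22 (SE), which did not reach the unadjusted threshold (edgeR adjusted p = 0.258). Acsl3, Acsl4 and Acsl5 had log2 fold changes of 0.17, 0.06 and 0.19, with none under a p of 0.05, and Acsl6 had -0.54 at 1.16 to 5.59 CPM in ac-WT and 1.47 to 3.01 CPM in ac-CYB5R3–KO mice. The signs of Acsl3 and Acsl4 turned negative without ac-WT mice 2 and 3 (-0.08 and -0.10), and Acsl6 shrank to -0.07. The ratio of Acsl5 to Acsl1 within a library, which no scaling between libraries can move, was higher by 0.78 on the log2 scale in ac-CYB5R3–KO mice (exact permutation p = 0.0455, adjusted over 11 ratios p = 0.10), with 4 of 6 ac-CYB5R3–KO mice above all ac-WT mice, and by 0.34 without ac-WT mice 2 and 3. The ratios of Acsl3, Acsl4 and Acsl6 to Acsl1 differed by 0.81, 0.66 and 0.19 (exact permutation p = 0.121, 0.149 and 0.429). Without ac-WT mice 2 and 3 they differed by 0.205, 0.196 and 0.327.

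The carnitine shuttle held 4 members, all with a log2 fold change below 0 (3 of 4 with total counts, where Cpt1a was 0.14). Crat (chr2:30255991-30271333 in NCBIM37), carnitine acetyltransferase, which exchanges acetyl groups between coenzyme A and carnitine, had 109.4, 257.6, 181.5, 111.8, 111.8 and 128.5 CPM in ac-WT mice 1 to 6. The 6 ac-CYB5R3–KO mice, 1 to 6, had 83.8, 106.2, 76.7, 99.0, 97.1 and 84.6 CPM. The groups did not overlap, but the highest ac-CYB5R3–KO mouse and the lowest ac-WT mouse were close. The log2 fold change was -0.72 ± 0.21 (SE; edgeR adjusted p = 0.186), -0.32 without ac-WT mice 2 and 3, and -0.48 without ac-WT mouse 2. It missed the unadjusted threshold when ac-WT mouse 3 (-0.65) or ac-CYB5R3–KO mouse 3 (-0.67) was left out, with total counts (-0.35) and with 1 surrogate variable, a covariate estimated from the counts (-0.32). Cpt2, which returns the acyl group to coenzyme A inside the mitochondrion, averaged 55.3 ± 19.1 CPM (SD, n = 6) in ac-WT mice against 38.4 ± 8.90 CPM (SD, n = 6) with the deletion (edgeR adjusted p = 0.268). Cpt1a, the liver-type form of the entry enzyme, was 20.8 to 36.0 and 18.7 to 33.2 CPM, nearly the same range. Cpt1b, the muscle form, had only 33 to 326 counts per library, and 2744 of its 3372 exon bases (81.4%) lie within exons of Chkb on the same strand, so its level here is uncertain. Its log2 fold change was -1.52 ± 0.54 (SE; edgeR adjusted p = 0.237). Ac-WT mouse 3 had 9.05 CPM, and no other mouse exceeded 2.72.

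The acyl-CoA dehydrogenases, which carry out the first oxidation step on chains of decreasing length, gave no call. Acadvl, Acadl, Acadm and Acads had log2 fold changes of -0.35, -0.26, -0.12 and -0.18, and with total counts the last 3 were 0.04, 0.18 and 0.13. The lowest edgeR adjusted p of the step was 0.492. Acadl was the most abundant per length, with 212 CPM per kb of exon in ac-WT mice against 57.7 for Acadm, 24.5 for Acads and 7.56 for Acadvl. Of the exon bases of Acadvl, 1151 of 2686 (42.9%) overlap Dvl2 on the opposite strand, and the strand setting of the counting is not given in the sources used here. Acad9, which also serves the assembly of respiratory complex I, had 0.15 (6.16 to 8.67 CPM in ac-WT and 7.30 to 10.5 CPM in ac-CYB5R3–KO mice).

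Of the hydratase, dehydrogenase and thiolase steps, Acaa2 had the largest difference. Acaa2 (chr18:74938851-74965861 in NCBIM37), the mitochondrial thiolase that cleaves off acetyl-CoA, had 161.3, 401.5, 322.3, 154.7, 178.2 and 300.9 CPM in ac-WT mice 1 to 6. In ac-CYB5R3–KO mice 1 to 6 it had 77.7, 116.6, 70.5, 86.3, 104.1 and 100.6 CPM. The groups did not overlap, and ac-WT mice 2, 3 and 6 were the high ones. The ac-CYB5R3–KO mean was 36.6% of the ac-WT mean, with a log2 difference of -1.45 ± 0.24 (SE; edgeR adjusted p = 0.0476). That adjusted p lay just inside 0.05, and it was above 0.05 in all leave-one-out fits but those without ac-WT mouse 1 (0.0397) or 4 (0.0279), and reached 0.158 without ac-CYB5R3–KO mouse 4. The unadjusted p stayed under 0.01 in 23 of 23 alternative fits, with log2 fold changes from -1.56 to -1.03. It was -1.09 without ac-WT mice 2 and 3 (edgeR adjusted p = 0.101).

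The other members of these steps did not reach p under 0.01. Hadh, a dehydrogenase of shorter chains, averaged 141.8 ± 68.5 CPM (SD, n = 6) in ac-WT mice against 91.2 ± 22.4 CPM (SD, n = 6) with the deletion (log2 fold change -0.64, edgeR adjusted p = 0.283). Echs1, the enoyl-CoA hydratase of short chains, had -0.21 (edgeR adjusted p = 0.57). The peroxisomal thiolase Acaa1a had -0.25 ± 0.11 (SE) and the peroxisomal bifunctional enzyme Ehhadh -0.18 (edgeR adjusted p = 0.316 and 0.551). All 7 members of this group lay below 0 with TMM and 3 of 7 with total counts, where Hadhb, Echs1, Acaa1a and Ehhadh were above 0.

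Hadha and Hadhb, whose shared upstream sequence is printed above, differed in their response. Hadha ranged from 151.6 to 376.2 CPM (median 199.2) in ac-WT and 124.2 to 203.2 CPM (median 144.4) in ac-CYB5R3–KO mice, or a log2 difference of -0.58 ± 0.21 (SE, edgeR adjusted p = 0.236). Hadhb ranged from 202.8 to 394.1 CPM (median 301.5) and from 211.8 to 425.5 CPM (median 262.8), or a log2 difference of -0.07 ± 0.20 (SE, edgeR adjusted p = 0.88). Neither gene separated the groups by itself.

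Their ratio within each library did. The log2 ratio of Hadha to Hadhb was -0.74, -0.07, -0.17, -0.42, -0.72 and -0.49 in ac-WT mice 1 to 6 and -0.76, -1.07, -0.77, -0.97, -0.93 and -0.78 in ac-CYB5R3–KO mice 1 to 6. All ac-CYB5R3–KO mice lay below all ac-WT mice, though by a narrow gap. The difference was -0.45 (means -0.43 ± 0.28 and -0.88 ± 0.13, SD, n = 6 mice per group, exact permutation p = 0.00216, adjusted over 11 ratios p = 0.00794), and 0.00216 is the smallest p this test can give. It was -0.29 without ac-WT mice 2 and 3 (exact permutation p = 0.00476, adjusted p = 0.0262). The longest coding transcripts of the genes have a GC content of 51.2% and 45.4%, and the difference was -0.39 after a per-library GC correction.

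The 3 auxiliary enzymes, which prepare unsaturated fatty acids for the spiral, all lay below 0 under TMM and total counts alike, and 2 were lower at a p under 0.01 with TMM, of which Eci1 alone passed with total counts. Eci1 (chr17:24563628-24576261 in NCBIM37), a mitochondrial enoyl-CoA isomerase, had 78.7, 192.8, 115.0, 54.7, 73.7 and 63.3 CPM in ac-WT mice 1 to 6. The 6 ac-CYB5R3–KO mice, 1 to 6, had 35.8, 56.8, 36.7, 44.9, 58.3 and 42.3 CPM. The groups overlapped only through ac-WT mouse 4 and ac-CYB5R3–KO mice 2 and 5. The log2 fold change was -1.07 ± 0.28 (SE; edgeR adjusted p = 0.173) and -0.55 without ac-WT mice 2 and 3, and it missed the unadjusted threshold with 1 surrogate variable (-0.48). Decr1 (chr4:15844387-15872654 in NCBIM37), dienoyl-CoA reductase, had 86.1, 161.9, 157.5, 89.4, 100.7 and 168.2 CPM in ac-WT mice 1 to 6. In ac-CYB5R3–KO mice 1 to 6 it had 68.6, 89.3, 65.5, 73.5, 73.7 and 66.4 CPM. Ac-CYB5R3–KO mouse 2 alone reached into the ac-WT range, and ac-WT mice 2, 3 and 6 were the high ones. The log2 fold change was -0.81 ± 0.18 (SE; edgeR adjusted p = 0.144) and -0.59 without ac-WT mice 2 and 3. It was -0.50 with total counts, where it missed the unadjusted threshold. Eci2, a related isomerase, had -0.32 ± 0.13 (SE, edgeR adjusted p = 0.272).

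Electron transfer out of the dehydrogenases was split between subunits. Etfb (chr7:50699478-50713170 in NCBIM37) had 89.6, 271.7, 170.3, 88.4, 83.9 and 80.4 CPM in ac-WT mice 1 to 6. The 6 ac-CYB5R3–KO mice, 1 to 6, had 54.7, 50.3, 47.8, 53.8, 55.2 and 56.3 CPM. The groups did not overlap, and the ac-CYB5R3–KO values lay within a narrow band. The ac-CYB5R3–KO mean was 40.6% of the ac-WT mean (log2 fold change -1.30 ± 0.28 SE, edgeR adjusted p = 0.135). Leaving out ac-WT mice 2 and 3 gave a log2 fold change of -0.68 and an edgeR adjusted p of 0.00601, with the remaining ac-WT mice at 80.4 to 89.6 CPM. Etfa, the partner subunit, ranged from 97.0 to 170.6 CPM (median 137.4) in ac-WT and 92.2 to 201.0 CPM (median 125.6) in ac-CYB5R3–KO mice, or a log2 difference of -0.05 ± 0.19 (SE, edgeR adjusted p = 0.909) and 0.23 with total counts. Etfdh, which passes the electrons to ubiquinone, had -0.31 (edgeR adjusted p = 0.413).

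The balance of Etfa to Etfb differed within libraries. The log2 ratio was 0.75, -0.67, -0.42, 0.14, 0.75 and 0.73 in ac-WT mice 1 to 6 and 0.93, 2.00, 0.95, 1.36, 1.36 and 1.01 in ac-CYB5R3–KO mice 1 to 6. The groups did not overlap, and ac-WT mice 2 and 3 were the lowest. The difference was 1.05 (means 0.21 ± 0.64 and 1.27 ± 0.41, SD, n = 6 mice per group, exact permutation p = 0.00216, adjusted over 11 ratios p = 0.00794), or 1.16 against 2.41 as geometric mean ratios. Without ac-WT mice 2 and 3 it was 0.67 and no longer passed (exact permutation p = 0.019, adjusted p = 0.0698). The longest coding transcripts have a GC content of 45.0% (Etfa) and 57.0% (Etfb), and the difference was 0.93 after the GC correction. A higher GC content went with a lower log2 fold change over the members (Spearman rho -0.45 across 39 genes, -0.18 across 13856 genes, which are not independent replicates), and the part of GC content in single members was not tested beyond that correction.

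The peroxisomal and mitochondrial thiolases gave another ratio with separate groups. The log2 ratio of Acaa1a to Acaa2 ranged from -2.73 to -1.67 (median -2.16) in ac-WT and from -1.33 to -0.69 (median -1.05) in ac-CYB5R3–KO mice. It was higher in every ac-CYB5R3–KO mouse than in any ac-WT mouse, by 1.13 on average (exact permutation p = 0.00216, adjusted over 11 ratios p = 0.00794), and by 0.97 without ac-WT mice 2 and 3 (adjusted p = 0.0262). GC content was 59.5% and 52.9%, and the corrected difference was 1.18.

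**Figure D2:**
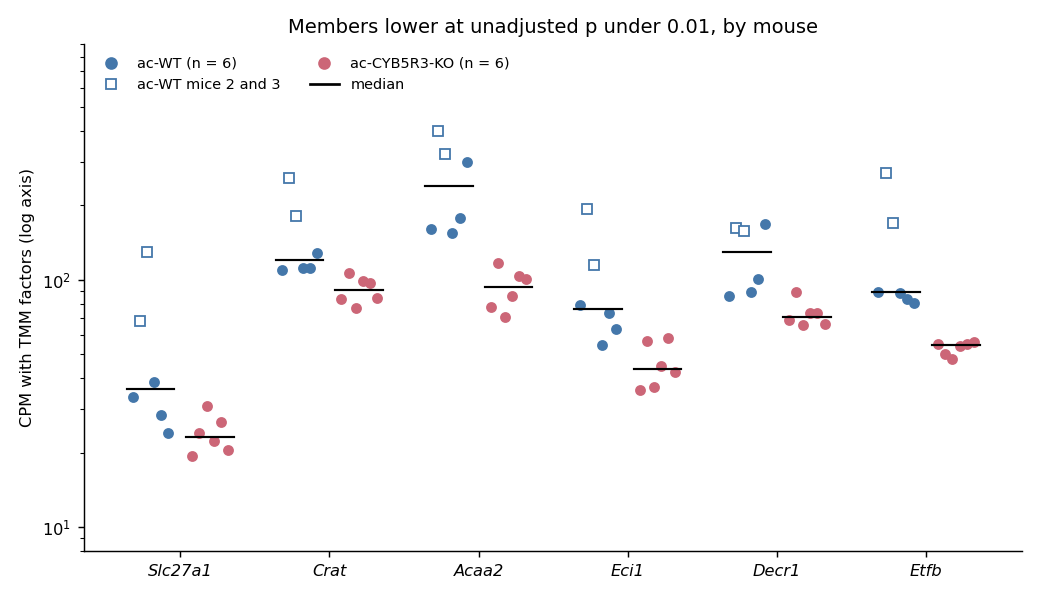
CPM with TMM factors (log y axis) of the 6 members lower at an unadjusted p under 0.01, 1 point per mouse, with ac-WT mice 2 and 3 as open squares and medians as lines. Crat, Acaa2 and Etfb show no overlap between the groups, and ac-WT mouse 2 is the highest point for Crat, Acaa2, Eci1 and Etfb.

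**Figure D3:**
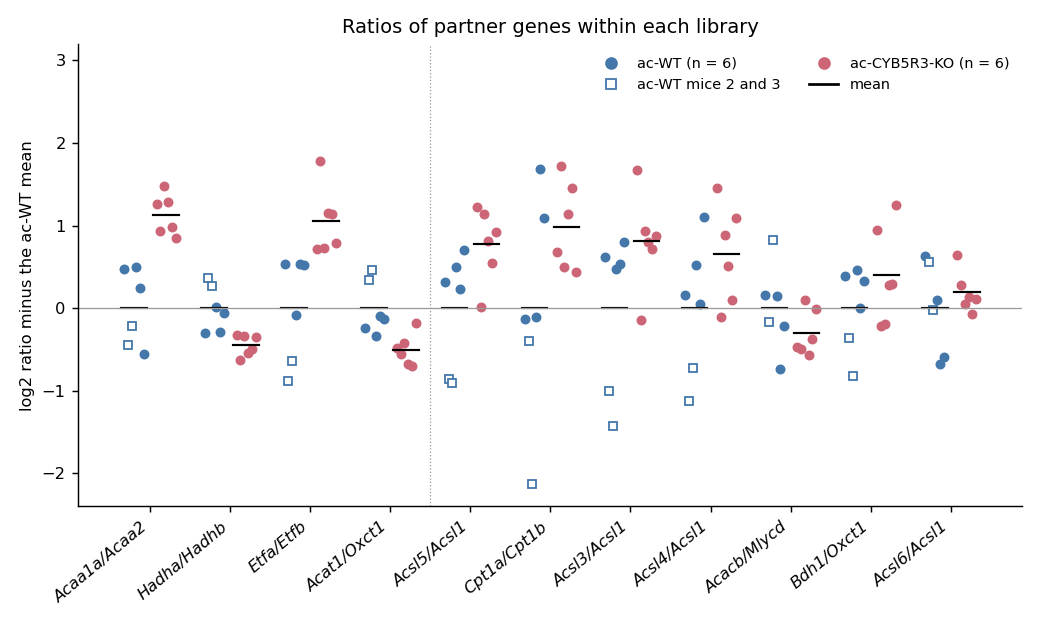
Log2 ratio of 2 member genes within each library, minus the ac-WT mean of that ratio (y axis), 1 point per mouse, for 11 pairs ordered by adjusted p on the x axis. The 4 pairs left of the dotted line have an adjusted p under 0.05, and the first 3 show all 6 ac-CYB5R3–KO mice outside the ac-WT range.

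Thioesterases and the malonyl-CoA enzymes, which release free fatty acids from coenzyme A and set the brake on their entry, had 5 of 5 members below 0 with both scalings but gave no call at p under 0.01. Acot2, a thioesterase of the mitochondrial matrix, came nearest to it (log2 fold change -0.64 ± 0.22 SE, edgeR adjusted p = 0.219), with 4 ac-CYB5R3–KO mice below the lowest ac-WT mouse. Just inside the threshold was Slc27a1, described above. Acot13 averaged 232.0 ± 64.5 CPM (SD, n = 6) in ac-WT mice against 174.2 ± 23.6 CPM (SD, n = 6) with the deletion (edgeR adjusted p = 0.274). Acacb, the acetyl-CoA carboxylase of the outer mitochondrial membrane that makes malonyl-CoA, ranged from 35.2 to 141.4 CPM (median 54.02) and from 25.3 to 45.6 CPM (median 36.8), or a log2 difference of -0.93 ± 0.32 (SE, edgeR adjusted p = 0.225). Mlycd, which degrades malonyl-CoA, had -0.51 (edgeR adjusted p = 0.356), and the ratio of Acacb to Mlycd did not pass (-0.30, exact permutation p = 0.242). Ucp3, a mitochondrial carrier of muscle, had the lowest log2 fold change of the 39 members, -1.92 ± 0.75 (SE, edgeR adjusted p = 0.267), at 0.51 to 22.1 CPM in ac-WT and 0.38 to 3.59 CPM in ac-CYB5R3–KO mice. Ac-WT mouse 3 had the 22.1 CPM and no other mouse exceeded 6.82 CPM.

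Ketone body genes did not share a direction. Acat1, the mitochondrial acetoacetyl-CoA thiolase, ranged from 85.5 to 222.1 CPM (median 114.9) in ac-WT and 70.3 to 114.0 CPM (median 87.5) in ac-CYB5R3–KO mice (log2 fold change -0.57 ± 0.21 SE, edgeR adjusted p = 0.242). Oxct1, which activates acetoacetate in tissues that burn ketone bodies, averaged 359.0 ± 74.98 and 358.5 ± 85.9 CPM (SD, n = 6 per group), a log2 fold change of 0.00 ± 0.18 (SE) that was 0.29 with total counts. Bdh1, hydroxybutyrate dehydrogenase, had 0.38 ± 0.26 (SE, edgeR adjusted p = 0.5), with 4 of 6 ac-CYB5R3–KO mice above all ac-WT mice. The log2 ratio of Acat1 to Oxct1 was lower by 0.50 in ac-CYB5R3–KO mice (means -1.51 ± 0.32 and -2.01 ± 0.19, SD, n = 6 mice per group, exact permutation p = 0.00649, adjusted over 11 ratios p = 0.0179), with 5 of 6 ac-CYB5R3–KO mice below all ac-WT mice. Without ac-WT mice 2 and 3 the difference was -0.30 (exact permutation p = 0.0333, adjusted p = 0.0917). The ratio of Bdh1 to Oxct1 did not pass (0.40, exact permutation p = 0.255), nor did that of Cpt1a to Cpt1b (0.99, exact permutation p = 0.113). Both shrank without ac-WT mice 2 and 3, to 0.10 and 0.36.

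Per kb of exon, members spanned a wide range of levels. In ac-WT mice Fabp3 led with 1320 CPM per kb, followed by Lpl (364) and Acot13 (322), and the lowest were Acad9 (0.901), Cpt1b (0.860) and Acsl6 (0.291). The rank of Cpt1b is uncertain, since most of its exon bases lie within exons of Chkb. Of the 6 members lower at a p under 0.01, Acaa2 had rank 5, Etfb 7, Eci1 9, Decr1 15, Crat 18 and Slc27a1 22 of 39. In ac-CYB5R3–KO mice Acaa2, Etfb and Eci1 were at 61.1, 46.5 and 42.0 CPM per kb, against 167, 115 and 88.3 in ac-WT mice.

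Another 73 genes of fatty acid and ketone metabolism and its regulators were counted from a fixed list, and all were tested. Of these, 6 were lower (8.22%, beside 3.27% of all genes) and 0 higher (beside 1.33%) at an unadjusted p under 0.01, 53 (72.6%, beside 51.2%) had a log2 fold change below 0, the median was -0.17, and 0 had an edgeR adjusted p under 0.05, with 16 lower at an unadjusted p under 0.05. The regulators held 3 of the 6. Ppara, the nuclear receptor for fatty acids, had -1.12 ± 0.32 (SE), Ppargc1a, a coactivator of mitochondrial genes, -1.10 ± 0.33, and its relative Ppargc1b -1.02 ± 0.31 (edgeR adjusted p = 0.184, 0.191 and 0.192). Ppargc1a was 18.7, 27.1 and 80.3 CPM (lowest, median, highest) in ac-WT and 12.4, 15.5 and 25.3 CPM in ac-CYB5R3–KO mice, so the groups overlapped. Dgat2, which makes triglyceride, had -1.24 ± 0.35 (SE). Without ac-WT mice 2 and 3, or with the mean of the cardiomyocyte markers as a covariate, 0 of the 73 had a p under 0.01, and 3 and 2 without ac-WT mouse 2 or 3 alone. As a comparison outside fatty acid oxidation, 21 of 22 genes of the TCA cycle and pyruvate dehydrogenase lay below 0 with a median of -0.29, and 1, Suclg1, named after its value was seen, was lower at a p under 0.01 (-0.61 ± 0.15 SE), a share of 4.55% beside 3.27% of all genes. The median of that list was 0.04 with total counts and -0.07 without ac-WT mice 2 and 3. The median of all genes in these settings was 0.26 and 0.02.

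Most cardiomyocyte markers lay below 0 like most members. With their mean as a covariate in edgeR, Acaa2, Decr1 and Etfb kept a p under 0.01 (log2 fold changes -1.03, -0.57 and -0.63) while Slc27a1, Crat and Eci1 did not (-0.42, -0.27 and -0.46), and the member median was -0.13. With whole-heart RNA, a change in the marker genes and a change in cell makeup cannot be told apart. White adipocyte markers were at or near 0. The 6 white adipocyte markers were too low to test, with at most 82 counts in any library for Cfd and at most 17 for Adipoq, Plin1, Cidec, Lep and Retn, and of the brown adipocyte list Ucp1 had at most 3 and Elovl3 at most 4. The other 4 genes of the brown list were measured. Cidea ranged from 12.6 to 34.1 CPM and Dio2 from 0.91 to 16.4 CPM over both groups. Cox7a1 and Cox8b, respiratory chain subunits that heart muscle also makes, averaged 376.5 and 344.3 CPM in ac-WT mice against 165.3 and 174.5 CPM with the deletion, and both were lower at an unadjusted p under 0.01 (edgeR adjusted p = 0.194 and 0.203). The mean of these 4 differed by -0.26 (exact permutation p = 0.0173, adjusted over 9 lists p = 0.0779). Of 7 smooth muscle and pericyte markers, 4 lay below 0. Acta2 (-0.89) and Myh11 (-0.93) were lower at an unadjusted p under 0.01 (28.6% of the list, beside 3.27% of all genes, edgeR adjusted p = 0.144 and 0.184). Cnn1 had 1.035 (edgeR adjusted p = 0.272), and the mean of that list differed by -0.075 (exact permutation p = 0.411). Blood markers had higher levels in some ac-CYB5R3–KO mice. The 4 tested cartilage and airway markers summed to 4.12 to 35.6 CPM in ac-WT and 37.9 to 96.9 CPM in ac-CYB5R3–KO mice, without overlap. Of these 4, 1 had all ac-CYB5R3–KO mice above all ac-WT mice (beside 0.510% of all genes), and 1 had a log2 fold change below 0. The hemoglobin genes Hba-a1 and Hba-a2, near-identical copies that reads cannot separate well, had log2 fold changes of 1.61 each (edgeR adjusted p = 0.29), and the mean of the cartilage and airway list was higher by 0.78 (exact permutation p = 0.00433, adjusted over 9 lists p = 0.039), a call lost without ac-WT mice 2 and 3 and in 7 of 12 leave-one-out runs, while Matn1, Scgb1a1 and Sftpc had at most 8 counts. The part of these tissues in the members' values was not tested.

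**Figure D4:**
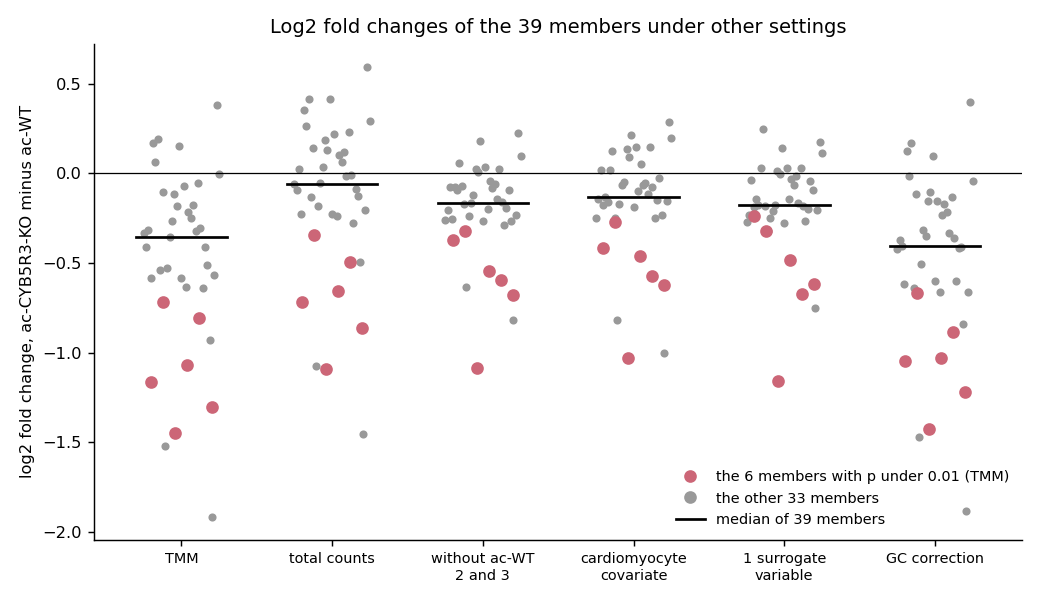
Log2 fold changes (y axis, ac-CYB5R3–KO minus ac-WT) of the 39 members under 6 settings (x axis), with the 6 members of p under 0.01 in colour and the median of all 39 as a line. The median is -0.35 with TMM, -0.06 with total counts, -0.17 without ac-WT mice 2 and 3, -0.13 with the cardiomyocyte covariate, -0.18 with 1 surrogate variable and -0.41 after GC correction.

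Promoter windows of 300 bases (250 before and 50 after the RefSeq start, GRCm38.p6) were at hand for 31 of the 39 members and for 27025 genes in all. Each motif was searched on both strands. TNAAGGTCA, an element bound by estrogen-related receptors, occurred in 1 member window (3.23%, Acsl6) and in 1.43% of all. AGGTCA, the nuclear receptor half-site that is contained in it, occurred in 8 (25.8%) and in 18.1% of all, and a direct repeat of AGGTCA with 1 base between in 0 and in 0.0481%. GGGCGG, the GC box, occurred in 21 (67.7%) and in 38.2% of all, and CCGGAAG, a site of ETS factors, in 2 (6.45%) and in 9.93%. The 3 called members with a window, Slc27a1, Eci1 and Etfb, each held a GC box and none of the other motifs, while Hadha and Hadhb both held a GC box. These are counts of letters in a window.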

How the data were processed

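RNA was prepared from frozen whole hearts, and stranded total RNA libraries were sequenced unpaired at 75 bp. Adapter trimming and STAR mapping came first, after which the authors counted reads and deposited raw counts, a whole number of reads per Ensembl gene and heart. The submitters' processing notes name STAR, featureCounts and GRCm39, whereas the study's methods name mm9, and the strand setting is not given in the sources used here, so positions are given with the reference they come from (GENCODE genes of NCBIM37, RefSeq promoters of GRCm38.p6). Symbols were matched for 31027 of 53700 genes, and 0 columns were left unused.

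Counts were filtered (filterByExpr, minimum 10), scaled by TMM and tested (two-sided) with edgeR's quasi-likelihood test, version 4.0.16 (R 4.3.3), without covariates and with Benjamini-Hochberg adjustment over 17847 genes. The SE of a log2 fold change is its size divided by the square root of F. Within-library ratios (counts + 1, log2) and means of marker lists (log2(CPM + 1)) were compared by two-sided exact permutation tests over 924 splits of 12 mice. The scripts were tested on simulated data. Alternatives were DESeq2 1.42.0, limma-voom (limma 3.58.1), 2 other scalings, 2 other filters, 1 surrogate variable (sva 3.50.0), a cardiomyocyte covariate, a replicate block and leaving out mice. A per-library GC correction in 20 bins, and the GC box and ETS motifs, were added after the data were seen. GC content was that of the longest coding transcript in GENCODE, and exon lengths are unions over all transcripts of a gene.

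Members and lists were chosen with earlier results of these data known. All members were accounted for by step, those with an unadjusted p under 0.01 mouse by mouse, and other pathway genes were named if among the 5 of smallest p under 0.01. Mice are separate animals, and the p-values set a group difference against the spread between them. Totals were 43393183 to 53754284 counts, so the spread between mice (biological coefficient of variation 26.5%) limits precision for all but the lowest genes. No molecular identifiers were used, so reads are not independent molecules.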

Additional observations from a re-analysis of the deposited data

Results flagged for a closer look

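A mouse far from the other 5 of its group was looked for in the CPM of each member and group with Dixon's ratio, which chance passes in about 1 of 20 groups, and 8 of 100 groups, members and ratios together, passed. Of these, 6 are high values of ac-WT mouse 2 or 3 in genes of different steps. In ac-WT mouse 2, Lpl was 4178 CPM against 1876 to 2345 in the other 5, Cpt2 was 92.4 CPM against 40.9 to 56.1, Echs1 was 151.6 CPM against 76.5 to 103.6, and Acot13 was 356.8 CPM against 179.3 to 230.4. In ac-WT mouse 3, Cpt1b was 9.05 CPM against 0.78 to 2.72, and Ucp3 was 22.1 CPM against 0.51 to 6.82. In ac-CYB5R3–KO mouse 2, Acsl6 was 3.01 CPM against 1.47 to 1.94, and Decr1 was 89.3 CPM against 65.5 to 73.7. Only Decr1 of these had an unadjusted edgeR p under 0.01, and its ac-CYB5R3–KO outlier lay toward the ac-WT mice. Ac-WT mice 2 and 3 also had the lowest TMM factors, 0.570 and 0.723.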

How the results depend on the processing

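With 6 members lower at an unadjusted p under 0.01, other settings gave 11 with DESeq2, 3 with total counts, 10 with the replicate block, 3 with 1 surrogate variable and 3 with the cardiomyocyte covariate, and 4 to 12 when 1 mouse was left out (4 without ac-WT mouse 3, 12 without ac-WT mouse 4 and 11 without ac-WT mouse 6). DESeq2 called more genes overall as well (1238 at this p, and 451 at an adjusted p under 0.05, with 355 left without an adjusted p). Among all genes, the 820 at a p under 0.01 became 426 with total counts, 376 with 1 surrogate variable, 303 with the covariate, 426 without ac-WT mice 2 and 3, and 463 to 1169 when 1 mouse was left out. At an adjusted p under 0.05, DESeq2 called 6 members, while limma-voom, total counts, DESeq2 size factors in edgeR, the replicate block, 1 surrogate variable and the covariate called 0, and leaving out 1 mouse 0 or 1. The member median of -0.35 was -0.059 with total counts and -0.44 to -0.24 without 1 mouse. The 6 other pathway genes were 3 with limma-voom, 2 with total counts, 1 with 1 surrogate variable, 0 with the covariate, 0 without ac-WT mice 2 and 3, and 2 to 10 when 1 mouse was left out. The median of the TCA cycle list turned to 0.035 with total counts, where the median of all genes was 0.256. That list's median was -0.002 with the covariate, -0.073 without ac-WT mice 2 and 3, and -0.36 to -0.12 without 1 mouse. The 4 ratios that passed were 2 without ac-WT mice 2 and 3 and 4 or 5 without 1 mouse, and the number of marker lists that passed, 1 (cartilage and airway), was 0 without ac-WT mice 2 and 3 and 0 to 3 without 1 mouse. The cause of these moves was not tested.

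The labels do not say whether replicate numbers pair the mice, and pairing was not tested. Deviations of same-numbered mice correlated from -0.16 to 0.36 (mean 0.133, against -0.0255 for other pairs), 4 of 6 pairs were above 0.1, and 3 mice correlated best with their own number. With the replicate block in edgeR, 10 members were lower and 1 was higher (Bdh1, 0.38) at a p under 0.01 and 0 had an adjusted p under 0.05. Paired by sign flips, 0 ratios passed, with a lowest adjusted p of 0.0573 over the 11 ratios. The smallest p of 64 flips is 0.0312, so none can pass unless most of the 11 reach it. The sign flips therefore cannot decide whether the ratios hold under pairing.

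Directions that turned, by the sign of the log2 fold change, were all of members without a call. With total counts the median of all genes was 0.26, and of the members that turned only Oxct1 lay above it. With total counts the log2 fold changes were Lpl 0.026, Cpt1a 0.14, Acadl 0.036, Acadm 0.18, Acads 0.13, Hadhb 0.22, Echs1 0.10, Acaa1a 0.061, Ehhadh 0.12, Etfa 0.23 and Oxct1 0.29. With the cardiomyocyte covariate they were Lpl 0.017, Acsl3 -0.13, Acsl4 -0.16, Acsl6 0.12, Acadm 0.14, Acads 0.093, Hadhb 0.15, Echs1 0.049, Etfa 0.14 and Oxct1 0.20. With 1 surrogate variable they were Acsl3 -0.14, Acsl4 -0.18, Acsl6 0.25, Acadm 0.013, Hadhb 0.031, Etfa 0.030 and Oxct1 0.11. Without ac-WT mice 2 and 3 they were Acsl3 -0.076, Acsl4 -0.096, Acadm 0.025, Acads 0.008, Hadhb 0.036, Etfa 0.026 and Oxct1 0.094. Acsl4 was -0.015 after GC correction, and Oxct1 was 0.027 without a filter and 0.003 with at least 10 counts in every library. When 1 mouse was left out, Acsl4 ran from -0.019 to 0.207, Hadhb from -0.228 to 0.033, Etfa from -0.214 to 0.031 and Oxct1 from -0.098 to 0.124. The 6 members with a p under 0.01 stayed below 0 in 23 of 23 alternatives.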
